A study of Mus musculus with 9 samples.

Results

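The granins and the genes that process prohormones are 10 genes, taken by symbol from the 31053 genes counted: the granins Chga, Chgb, Scg2, Scg3 and Vgf, the convertases Pcsk1 and Pcsk2, the carboxypeptidase Cpe, and the convertase inhibitor Pcsk1n and chaperone Scg5. They were chosen by name with the differences between the groups of these data already known, so the values below that compare the groups describe the members and support nothing beyond them. Nuclei came from the cortex and hippocampus of 9 wild-type male C57BL/6 mice, with 1 library per mouse and 3 mice per group. The groups were young AAV-EGFP (5 months), aged AAV-EGFP (19 months) and aged AAV-B3GNT3 (19 months). All 9 mice carried an adeno-associated virus (AAV) of the PHP.V1 capsid, given 8 weeks before the tissue was taken, with a short CLDN5 promoter that drives expression in brain endothelial cells. The virus carried EGFP alone, the control, or EGFP with B3GNT3, a glycosyltransferase that lengthens O-linked glycans of mucins, so that neurons were not the cells meant to express it. Nuclei were stained with an antibody to the neuronal protein NeuN and with a DNA dye, and single nuclei were sorted. The paper does not state whether the sort selected on NeuN. RNA was counted from the 3′ end as unique molecular identifiers (UMIs).

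Neurons store peptides in dense-core vesicles. Granins are acidic proteins that condense with the cargo as these vesicles form, and several of them are themselves cut into peptides. The convertases PC1/3 (Pcsk1) and PC2 (Pcsk2) cut prohormones at paired basic residues, carboxypeptidase E (Cpe) trims the basic residues that remain, proSAAS (Pcsk1n) inhibits PC1/3, and 7B2 (Scg5) is needed for PC2 to mature. The products include neuropeptides such as somatostatin and cholecystokinin.

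In GRCm38 (GENCODE vM21) the granin genes are Chga (ENSMUSG00000021194, chr12:102554969-102565028, plus strand), Chgb (ENSMUSG00000027350, chr2:132781278-132795079, plus), Scg2 (ENSMUSG00000050711, chr1:79434669-79440120, minus), Scg3 (ENSMUSG00000032181, chr9:75643189-75684056, minus) and Vgf (ENSMUSG00000037428, chr5:137026392-137033351, plus). The processing genes are Pcsk1 (ENSMUSG00000021587, chr13:75089826-75134861, plus), Pcsk2 (ENSMUSG00000027419, chr2:143546156-143816285, plus), Cpe (ENSMUSG00000037852, chr8:64592542-64693054, minus), Pcsk1n (ENSMUSG00000039278, chrX:7919822-7924410, plus) and Scg5 (ENSMUSG00000023236, chr2:113776362-113829121, minus). Genes on the other strand overlap Pcsk1n (Eras), Pcsk2 (Pcsk2os1 and Pcsk2os2) and Scg3 (Gm37871), which a strand-specific count keeps apart.

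The cyclic AMP response element TGACGTCA, the site bound by CREB, is a known feature of granin promoters, and 8 of the 10 members had a promoter window in the RefSeq table used here (build GRCm38.p6, from 250 bases before to 50 after the start site). Of these 8, 3 held the full element, against 1.79% of the 32851 windows in the table, and the same 3 are shown with Chga and Pcsk1n for contrast. The core TGACG, searched on both strands and contained in the full element, was in 7 of 8 windows, against 20.8% of all. Pcsk1n was the one without it. Each sequence has 30 bases, 5′ to 3′ on the gene's strand, with the motif in capitals.
Chgb: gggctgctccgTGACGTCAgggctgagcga
Scg2: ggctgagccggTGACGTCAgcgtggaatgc
Pcsk1: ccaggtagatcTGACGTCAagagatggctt
Chga: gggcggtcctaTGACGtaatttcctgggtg
Pcsk1n: agtgggggggacggggacgcggggaggggg
The stretches lie at chr2:132781559-132781588 (plus strand, Chgb), chr1:79440076-79440105 (minus strand, Scg2), chr13:75089768-75089797 (plus strand, Pcsk1), chr12:102554886-102554915 (plus strand, Chga) and chrX:7919792-7919821 (plus strand, Pcsk1n). The full element began 72 bases before the RefSeq start site in Chgb, 68 in Scg2 and 78 in Pcsk1. GENCODE begins the gene models of Chgb and Scg2 further upstream, so these stretches lie within the annotated genes. A match of letters is not a measured binding site.

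The libraries held 47332047 to 79964605 UMIs, and 70375 of 77823 barcodes were kept as nuclei. Clusters of nuclei were named from marker genes, which gave 20606 excitatory neurons, 8144 inhibitory neurons, 8453 astrocytes, 2515 oligodendrocyte precursors, 20218 oligodendrocytes and 2274 microglia. Neurons with Drd1 or Drd2, which mark the striatum, were present although the tissue was labelled cortex and hippocampus. Of the barcode sequences, 734 occurred in more than 1 library.

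Neurons held more of each member per nucleus than oligodendrocytes or microglia, and 2 members, Cpe and Scg3, had their highest mean per nucleus in astrocytes. Cpe was among the genes used to find the classes, and the other 9 members were not. Per 100 nuclei, Cpe had 846 UMIs in astrocytes, 507 in excitatory neurons and 28.2 in oligodendrocytes as means of 9 mice. Scg3, a granin that binds cholesterol in the vesicle membrane, had 73.9 UMIs per 100 astrocyte nuclei and 69.3 per 100 excitatory neurons, against 7.47 in oligodendrocytes. Relative to the total RNA of the class, Scg3 stood at 225 ± 29.2 CPM (the gene's UMIs over all UMIs of the class in that mouse, scaled to a common total, with no further scaling; mean ± SD, n = 9) in astrocytes and 60.6 ± 7.53 CPM in excitatory neurons, and the ranges of the 9 mice did not overlap. Pcsk2 had the lowest ratio of oligodendrocyte to excitatory level of the 10, with 1249 UMIs per 100 excitatory and 590 per 100 inhibitory neurons against 30.6 in astrocytes, 133 in precursors and 35.8 in oligodendrocytes. Pcsk1 was next, with 74.8 UMIs per 100 excitatory neurons and 2.87 per 100 oligodendrocytes. Scg5 had 179 and 162 UMIs per 100 excitatory and inhibitory neurons and 63.4 per 100 precursors, the cells that give rise to oligodendrocytes.

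**Figure D1:**
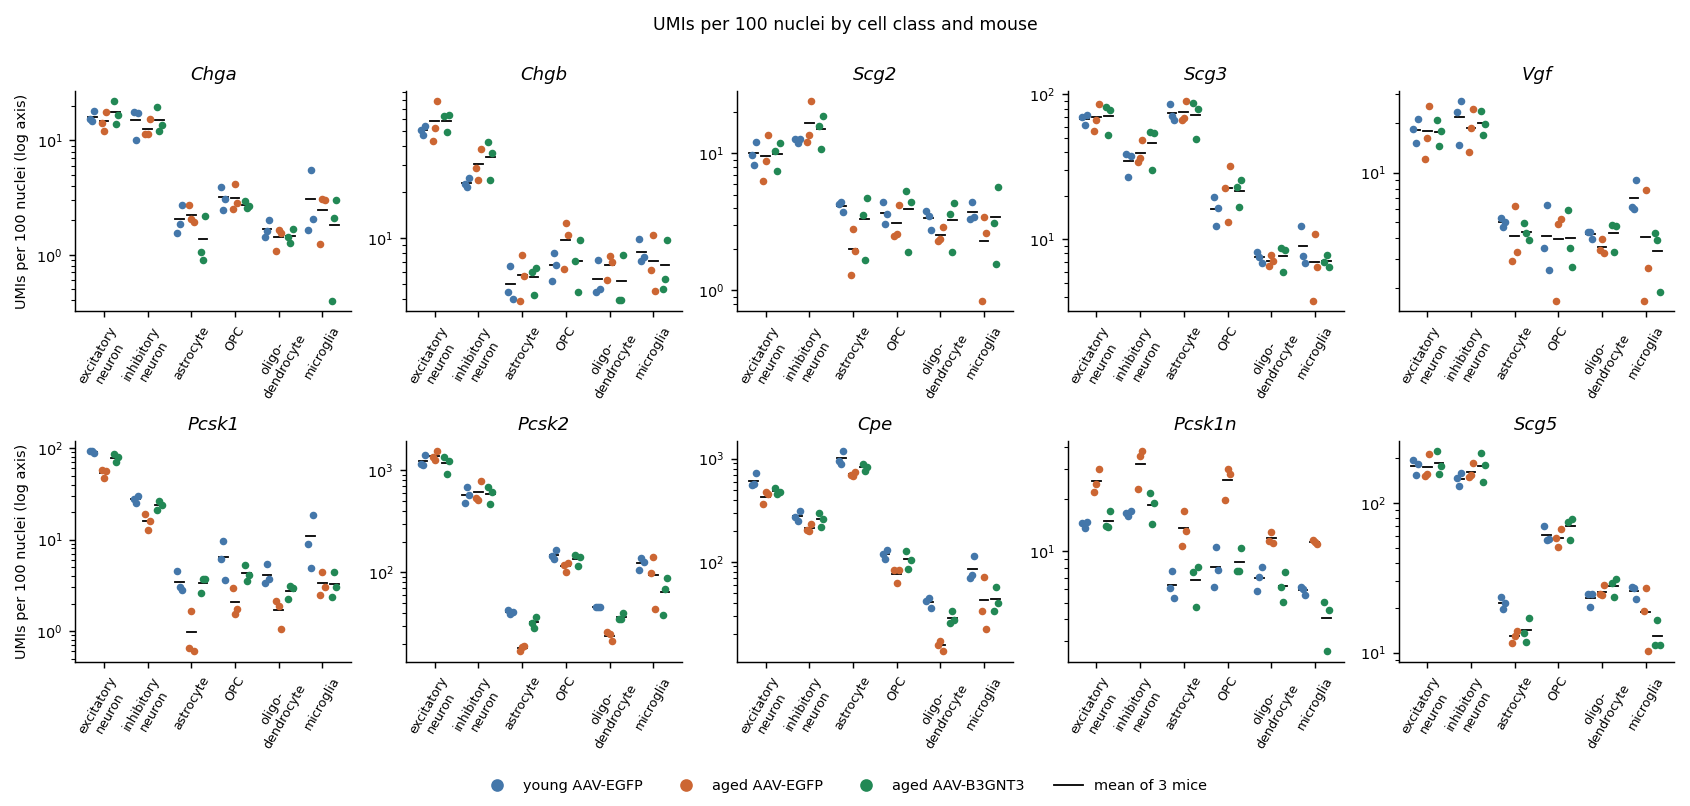
UMIs per 100 nuclei (log axis) of the 10 members in 6 cell classes, with 1 point per mouse, coloured by group, and a line at the mean of 3 mice. OPC stands for oligodendrocyte precursor. Cpe was highest in astrocytes, and Pcsk1n lay higher in aged AAV-EGFP mice than in the other groups in all 6 classes.

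Free RNA in the droplets can put UMIs of neuronal genes into glia, and the members differed in how much of the neuronal level oligodendrocytes showed. The oligodendrocyte level per nucleus was 2.96% of that in excitatory neurons for Pcsk2, 3.75% for Pcsk1, 5.47% for Cpe, 9.63% for Chga, 10.6% for Chgb, 10.9% for Scg3 and 14.5% for Scg5. It was 23.3% for Vgf, 31.8% for Scg2 and 46.0% for Pcsk1n, with a range of 36.5 to 55.0% over the 9 mice for Pcsk1n. These 3 genes had the shortest spans of the 10, namely 6.96, 5.45 and 4.59 kb, against 270.1 kb for Pcsk2 and 100.5 kb for Cpe. This is an order across 10 genes that share libraries and depth, and it was not tested.

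A Pcsk1n UMI was found in 15.9% of excitatory neurons and in 7.81% of oligodendrocytes, whose median depths were 10577 and 1990 UMIs. After thinning to 1000 UMIs per nucleus, which left out 16 excitatory neurons and 950 oligodendrocytes, the shares were 1.82% and 4.06%, and inhibitory neurons stood at 2.70%. At equal depth, then, the share of nuclei with a Pcsk1n UMI was in neither neuron class above that of a class not known for this gene. Without thinning, excitatory and inhibitory neurons had 18.3 and 22.5 Pcsk1n UMIs per 100 nuclei, against 8.37 in oligodendrocytes. Thinning does not remove free RNA, which can make up a larger part of the UMIs in nuclei of low depth. For Vgf and Scg2 the share was below that of oligodendrocytes in excitatory neurons (1.60% against 1.97% and 0.889% against 1.46%) and above it in inhibitory neurons (2.29% and 1.60%). For the other 7 members the thinned share was higher in excitatory neurons, as with Chga (1.38% against 0.751%), Chgb (4.87% against 2.80%), Pcsk1 (5.68% against 1.25%) and Pcsk2 (62.3% against 14.3%).

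Within neurons, each member had a pattern of its own over the subclasses, which were named from marker genes after the members had been taken out of the genes used to cluster. Of the 31 named clusters of neurons, 8 had more markers of another subclass than of their own among their 10 leading genes by fold. They lay in the upper-layer-like, middle-layer-like, layer 5 extratelencephalic-like, deep intratelencephalic-like, Drd1 striatal-like and Pvalb interneuron-like subclasses, so that these names are less sure, and the deep intratelencephalic-like one had 1991 of its 2325 nuclei in such a cluster. Pcsk1 was highest in middle-layer-like neurons (101 ± 15.4 CPM, mean ± SD, n = 9 mice), followed by layer 5 extratelencephalic-like (92.8 ± 27.3), Vip interneuron-like (76.3 ± 16.0) and near-projecting-like neurons (73.7 ± 23.6). Neighbours in this order differed by less than the larger of their SDs. Pcsk1 was low in Pvalb interneuron-like (10.3 ± 4.95 CPM) and dentate granule-like neurons (10.3 ± 7.06 CPM). Pcsk2, in contrast, was high in upper-layer-like (1255 ± 168 CPM) and Drd2 striatal-like neurons (1221 ± 135) and stood at 1519 ± 139 CPM in the nuclei called deep intratelencephalic-like. Its lowest level was in Pvalb interneuron-like neurons, at 126 ± 21.4 CPM. The Drd2 striatal-like neurons combined a high Pcsk2 with a low Pcsk1 (13.3 ± 8.39 CPM).

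Among the granins, Chgb was highest in near-projecting-like neurons at 107 ± 22.3 CPM, with layer 6 corticothalamic-like (68.7 ± 12.1) and CA3-like neurons (68.6 ± 19.2) next. The last 2 could not be ordered. Scg3 was highest in layer 6 corticothalamic-like (109 ± 8.14 CPM) and near-projecting-like neurons (93.2 ± 20.04). Vgf, which yields several bioactive peptides, was highest in Sst interneuron-like (34.7 ± 8.34 CPM), Vip interneuron-like (31.8 ± 11.8) and layer 5 extratelencephalic-like neurons (28.7 ± 9.46), which overlapped each other. Chga was lowest in Lamp5 interneuron-like neurons (5.39 ± 1.45 CPM) and near 20 CPM in Pvalb and Sst interneuron-like neurons (20.1 ± 4.97 and 19.5 ± 6.63). Cpe was highest in CA3-like (727 ± 71.5 CPM) and CA1-like neurons (665 ± 85.5) of the hippocampus, while the dentate granule-like neurons of the same structure had 145 ± 46.1 CPM. Scg5 ran from 84.0 ± 10.5 CPM in dentate granule-like to 191 ± 24.4 CPM in middle-layer-like neurons, leaving aside a subcortical glutamatergic-like subclass of 218 nuclei that was absent from at least 1 mouse.

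**Figure D2:**
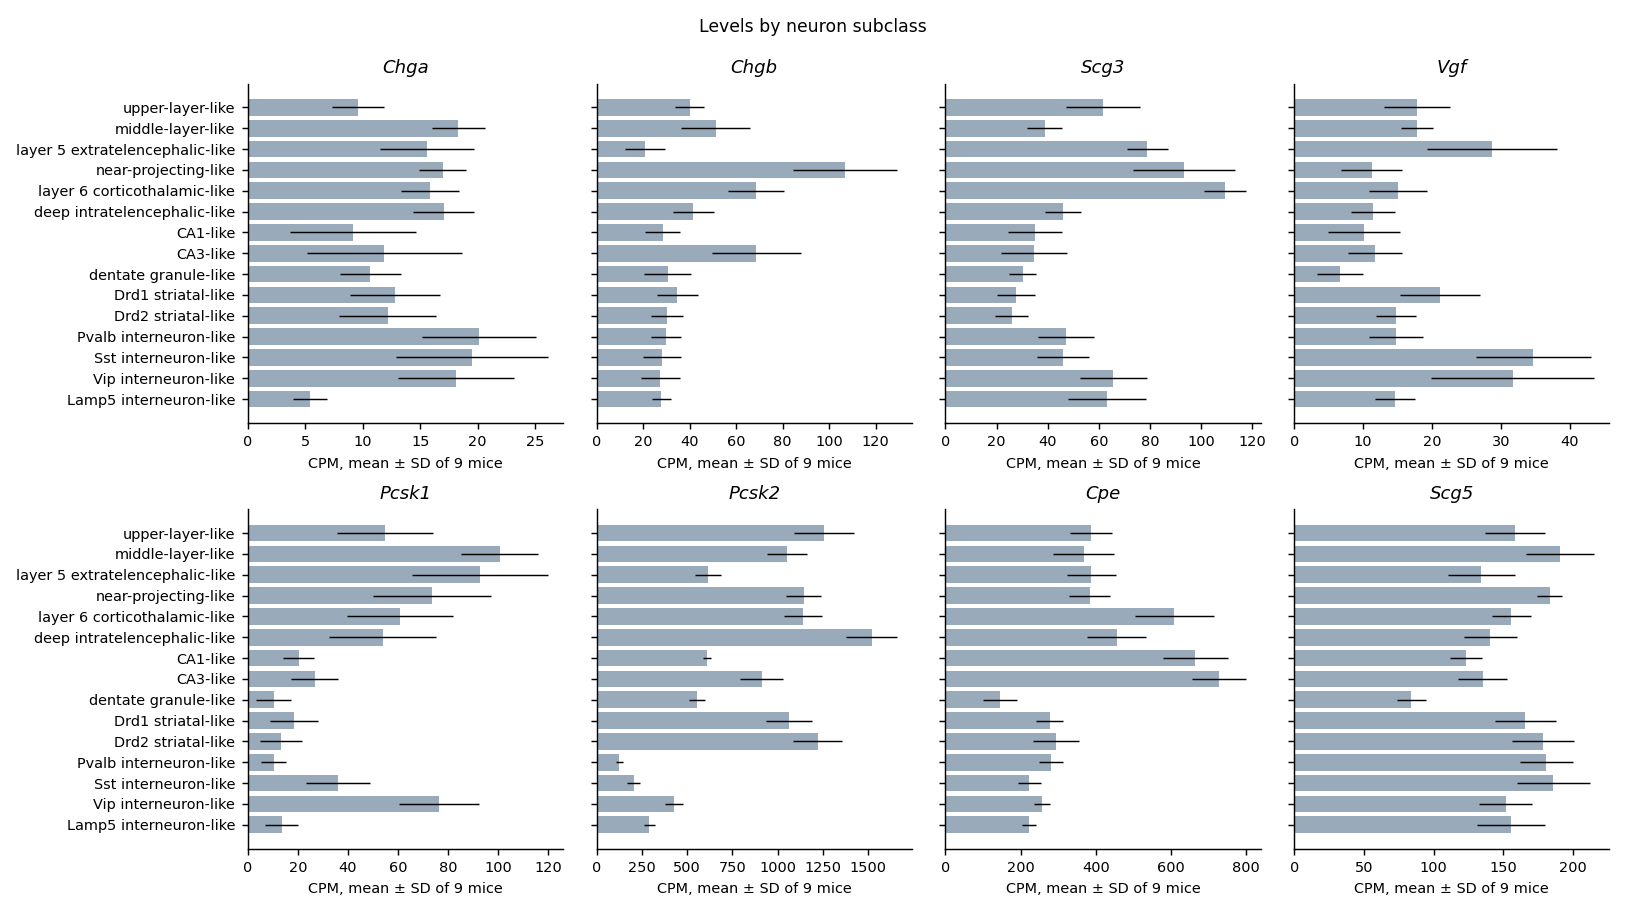
Levels of 8 members in 15 neuron subclasses, as mean CPM of 9 mice with the SD as error bar. Pcsk1 and Pcsk2 differ in order, with Pcsk2 low in the interneuron-like subclasses and Chgb highest in near-projecting-like neurons.

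Over 24 classes and subclasses and among 13255 genes, those whose log2 levels were most like the mean profile of the 10 members were 4930447C04Rik (Pearson r = 0.886), Agbl4 (0.872), Gm9866 (0.841), Ift88 (0.834) and Cbarp (0.831). The points share libraries and sequencing depth, so r describes these 24 profiles and has no p. Pcsk1 (r = 0.845) and Chga (0.729) lay closest to the mean profile among the members. Each member is itself part of that profile, which raises its r, so members and other genes are not compared by it. Pcsk1n ran against it (r = -0.584), as did Scg2 weakly (-0.106).

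The comparison of aged with young AAV-EGFP mice describes the difference with age, and that of aged AAV-B3GNT3 with aged AAV-EGFP mice the difference with the endothelial enzyme in the aged brain. By the paper's methods, aged mice came from the National Institute on Aging colony and young mice from Jackson Laboratories. Age and source thus cannot be told apart, and a difference with age below covers both. Both comparisons use the same 3 aged AAV-EGFP libraries, so opposite values in them are not independent. In excitatory neurons Pcsk1n was higher and Pcsk1 lower in aged than in young AAV-EGFP mice, and Pcsk1n was lower again with AAV-B3GNT3. The 5 granins passed the test in neither comparison in either neuron class, with edgeR or with DESeq2, and 2 of them, Chgb and Scg2, had an unadjusted edgeR p under 0.05, with age in inhibitory neurons. Counts were summed per mouse and class and fitted with edgeR across all genes, and a gene was called at a Benjamini-Hochberg adjusted p under 0.05. Unless another setting is named, whether a change passed refers below to this edgeR fit with all samples, and other settings called more members in some comparisons. In the comparisons by class that follow, CPM are scaled with the TMM factors of that fit, whereas the levels by class and subclass given above are plain CPM. With age, 2 of 10 members were called in excitatory neurons, against 14.1% of 16893 genes. With AAV-B3GNT3, 1 of 10 was called, against 2.43%. In inhibitory neurons 1 of 10 was called in each comparison, against 3.45% and 0.282% of 14547 genes. Since the members were chosen with these differences known, nothing is read from the counts. The median log2 change of the members was 0.02 with age and -0.10 with AAV-B3GNT3 in excitatory neurons, where the median of all genes was 0.02 and 0.01.

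**Figure D3:**
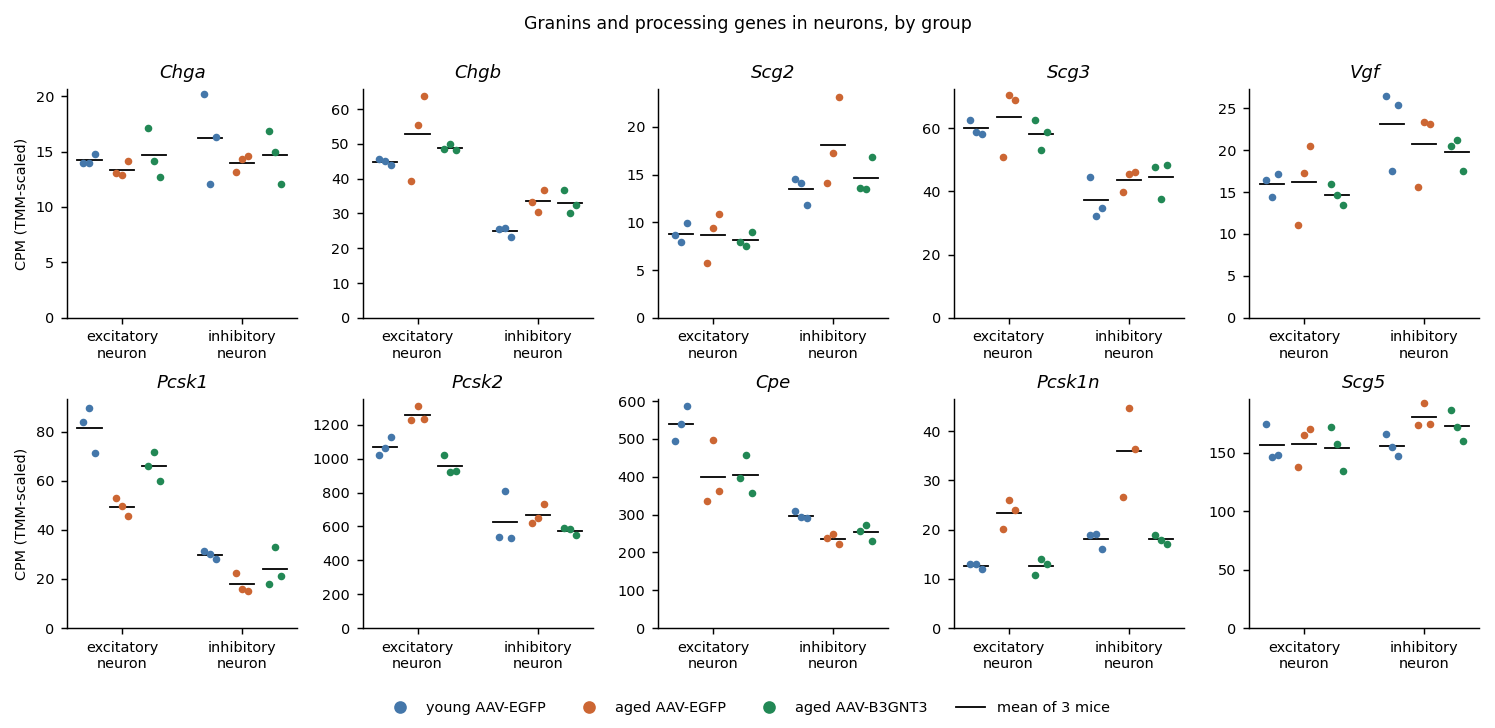
TMM-scaled CPM of the 10 members in excitatory and inhibitory neurons, with 1 point per mouse, coloured by group, and a line at the mean of 3 mice. The aged AAV-EGFP mice lie apart from the other groups in both neuron classes for Pcsk1n.

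Among the granins, Chgb in excitatory neurons had 45.7, 45.0 and 44.0 CPM in the young mice, 39.4, 55.4 and 63.7 in the aged AAV-EGFP mice and 48.5, 49.9 and 48.3 in the aged AAV-B3GNT3 mice. The aged AAV-EGFP mice spread over the whole range of the others. Without aged AAV-EGFP replicate 1, the lowest of these, the log2 change with age was 0.41 in place of 0.24 and passed the test. In inhibitory neurons Chgb had 25.7, 25.8 and 23.2 CPM in young and 33.3, 30.5 and 36.8 in aged AAV-EGFP mice, which did not overlap, at a log2 change of 0.43 ± 0.13 (SE) that did not pass. The aged AAV-B3GNT3 mice, at 36.6, 30 and 32.3 CPM, overlapped the aged controls, and 1 of them lay just below the lowest.

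Vgf in excitatory neurons had 16.5, 14.4 and 17.1 CPM in young, 11.1, 17.2 and 20.4 in aged AAV-EGFP mice and 16.0, 14.7 and 13.4 in aged AAV-B3GNT3 mice. The groups overlapped fully, and the log2 changes were 0.03 ± 0.19 with age and -0.15 ± 0.19 with AAV-B3GNT3. Scg2, Scg3 and Chga likewise overlapped between the groups of both comparisons in both neuron classes. In excitatory neurons their log2 changes ran from -0.09 (Chga) to 0.09 (Scg3) with age and from -0.13 (Scg3) to 0.13 (Chga) with AAV-B3GNT3. The largest among these 3 in inhibitory neurons was that of Scg2 with age, at 0.43 ± 0.19. The same mouse, aged AAV-EGFP replicate 1, was the lowest of its group in excitatory neurons for 8 of the 10 members, Pcsk1n among them, and not for Chga and Pcsk1.

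Of the convertases, Pcsk1 in excitatory neurons had 83.9, 89.5 and 71.4 CPM in young, 53.0, 49.7 and 45.5 in aged AAV-EGFP mice and 65.9, 71.9 and 59.99 in aged AAV-B3GNT3 mice. The 3 aged controls lay below all other mice. Pcsk1 fell by 0.72 ± 0.11 (SE from the fit of all 9 samples, 3 mice per group) on the log2 scale with age, a ratio of 0.606. The call held with each of the 9 samples left out in turn. The change with AAV-B3GNT3 was 0.42 ± 0.11 and did not pass in edgeR with all 9 samples (adjusted p 0.066). It passed without aged AAV-EGFP replicate 1 or aged AAV-B3GNT3 replicate 3. With DESeq2 or no filter on low counts, more members than Pcsk1n were called in this comparison. In inhibitory neurons Pcsk1 had 31.5, 30.2 and 27.9 CPM in young and 22.4, 16.0 and 15.1 in aged AAV-EGFP mice. These did not overlap either, and the log2 change of -0.76 ± 0.21 did not pass in edgeR with all samples (adjusted p 0.066). Without aged AAV-EGFP replicate 1 or aged AAV-B3GNT3 replicate 2 it did. DESeq2 with all samples called more members than Pcsk1n in this comparison. The aged AAV-B3GNT3 mice had 18.1, 33.1 and 21.3 CPM and spanned both groups.

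Pcsk2 in excitatory neurons had 1019, 1064 and 1127 CPM in young, 1231, 1312 and 1236 in aged AAV-EGFP mice and 1024, 921 and 928 in aged AAV-B3GNT3 mice. The aged controls lay above all other mice, at log2 changes of 0.24 ± 0.10 with age and -0.40 ± 0.10 with AAV-B3GNT3. Neither passed in edgeR with all samples (adjusted p 0.118 and 0.054), and the second lay close to the threshold. With DESeq2 or no filter on low counts, more members than Pcsk1n were called with AAV-B3GNT3 in this class. In inhibitory neurons the ranges of young (531 to 809 CPM) and aged AAV-EGFP mice (620 to 735 CPM) overlapped. The aged AAV-B3GNT3 mice, at 592, 586 and 548 CPM, lay below the aged controls, at a log2 change of -0.21 ± 0.16 that did not pass.

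Cpe in excitatory neurons had 493, 539 and 586 CPM in young, 335, 497 and 362 in aged AAV-EGFP mice and 397, 456 and 357 in aged AAV-B3GNT3 mice. The young mice were higher on average, with 1 aged control between the lowest and the middle young mouse, and the log2 change with age of -0.44 ± 0.15 did not pass. Without that mouse, aged AAV-EGFP replicate 2, it was -0.63 and passed. In inhibitory neurons Cpe had 309, 293 and 290 CPM in young and 237, 249 and 221 in aged AAV-EGFP mice, which did not overlap. The log2 change of -0.33 ± 0.11 did not pass in edgeR (adjusted p 0.088), while DESeq2 called more members than Pcsk1n in this comparison. With AAV-B3GNT3 the log2 changes of Cpe were 0.02 ± 0.15 and 0.10 ± 0.11 in the 2 neuron classes.

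Pcsk1n in excitatory neurons had 12.98, 12.99 and 11.91 CPM in young, 20.1, 25.9 and 24.0 in aged AAV-EGFP mice and 10.79, 13.97 and 12.96 in aged AAV-B3GNT3 mice. The lowest aged control lay above the highest mouse of both other groups. Pcsk1n rose by 0.89 ± 0.13 on the log2 scale with age, a ratio of 1.85, and fell by 0.89 ± 0.14 with AAV-B3GNT3, a ratio of 0.539. In inhibitory neurons it had 18.97, 19.08 and 15.95 CPM in young, 26.7, 44.8 and 36.4 in aged AAV-EGFP mice and 18.9, 17.9 and 17.1 in aged AAV-B3GNT3 mice. The order of the groups was the same, with changes of 0.996 ± 0.17 and -1.004 ± 0.17. The call with age in excitatory neurons held with each sample left out. The call with AAV-B3GNT3 in excitatory neurons was lost without any of 4 samples (aged AAV-B3GNT3 replicate 1 or 2, aged AAV-EGFP replicate 2, young AAV-EGFP replicate 3), at log2 changes of -0.99 to -0.79 over the samples left out. In inhibitory neurons the call with age was lost without aged AAV-EGFP replicate 2 or 3 or young AAV-EGFP replicate 1 or 3 (0.81 to 1.16), and that with AAV-B3GNT3 without aged AAV-B3GNT3 replicate 1 or 2 or aged AAV-EGFP replicate 2 or 3 (-1.17 to -0.80). With the replicate number as a block the latter change was -0.99 and did not pass.

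Scg5 had 175, 147 and 148 CPM in young, 138, 165 and 171 in aged AAV-EGFP mice and 172, 158 and 134 in aged AAV-B3GNT3 mice in excitatory neurons. The groups overlapped, at log2 changes of 0.01 ± 0.12 and -0.03 ± 0.12. In inhibitory neurons young mice (147 to 166 CPM) lay below aged AAV-EGFP mice (174 to 193 CPM), at 0.21 ± 0.10, which did not pass.

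By ranges alone, 3 of 10 members did not overlap between young and aged AAV-EGFP mice in excitatory neurons, against 35.9% of all genes, and 3 of 10 between the aged groups, against 24.5%. In inhibitory neurons these counts were 5 (background 26.5%) and 2 (22.8%).

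Pcsk1n did not differ in this way in neurons alone. In oligodendrocytes it had 25.0, 29.5 and 31.1 CPM in young, 58.4, 80.7 and 55.3 in aged AAV-EGFP mice and 24.8, 26.4 and 28.3 in aged AAV-B3GNT3 mice, and in astrocytes 19.2, 24.4 and 16.3, then 37.5, 64.9 and 36.6, then 18.8, 16.4 and 19.8. In precursors the aged AAV-EGFP mice had 44.8 to 84.2 CPM and the other 6 mice 13.5 to 24.9, and in microglia 52.2 to 55.2 against 12.8 to 24.4. The aged controls thus lay above all other mice in each of the 6 classes. The log2 changes with age and AAV-B3GNT3 were 1.19 ± 0.17 and -1.29 ± 0.17 in oligodendrocytes, 1.20 ± 0.23 and -1.34 ± 0.24 in astrocytes, 1.75 ± 0.27 and -1.83 ± 0.27 in precursors, and 1.23 ± 0.28 and -1.64 ± 0.27 in microglia, where they did not pass. The call with AAV-B3GNT3 was lost without aged AAV-B3GNT3 replicate 2 in astrocytes and without aged AAV-EGFP replicate 2 in precursors. Whether the changes differ between classes was not tested.

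Other measures also differed between the groups. The summed level of 83 ribosomal protein genes in excitatory neurons was 650 to 690 CPM in young, 747 to 1007 in aged AAV-EGFP mice and 609 to 676 in aged AAV-B3GNT3 mice, so that the aged controls again lay above the other 6. The log2 ratio of the group means was 0.42 with age and -0.48 with AAV-B3GNT3 in excitatory neurons, and 0.94 and -0.99 in oligodendrocytes. Malat1, a nuclear RNA, had log2 ratios of 0.37 and -0.61 in excitatory neurons. The summed mitochondrial RNA was lower with AAV-B3GNT3, without overlap, in oligodendrocytes (log2 ratio -1.26) and precursors (-1.08), and overlapped between the aged groups in the other 4 classes. With age it overlapped in all 6. Set against the ribosomal protein genes of the same class, a scale chosen after the data were seen, excitatory neurons had 20, 19 and 17.3 Pcsk1n counts per 1000 in young, 26.9, 25.7 and 25.2 in aged AAV-EGFP mice and 17.7, 21.1 and 19.2 in aged AAV-B3GNT3 mice. On this scale the groups did not overlap in either comparison in 5 of the 6 classes, where the log2 ratios ran from 0.43 in microglia to 1.23 in precursors with age and from -1.09 in precursors to -0.42 in excitatory neurons with AAV-B3GNT3. In excitatory neurons the ratio with age was 0.47. In oligodendrocytes the groups overlapped, at 0.26 and -0.31. With the oligodendrocyte level of the same mouse subtracted per nucleus, the log2 ratio of Pcsk1n in excitatory neurons was 0.98 with age (0.93 without subtraction) and -0.62 with AAV-B3GNT3 (-0.77 without). These 4 ratios are on plain CPM, so they compare with each other and not with the fitted changes on TMM scaling. The part of free RNA or RNA quality in the change of Pcsk1n was not tested further.

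**Figure D4:**
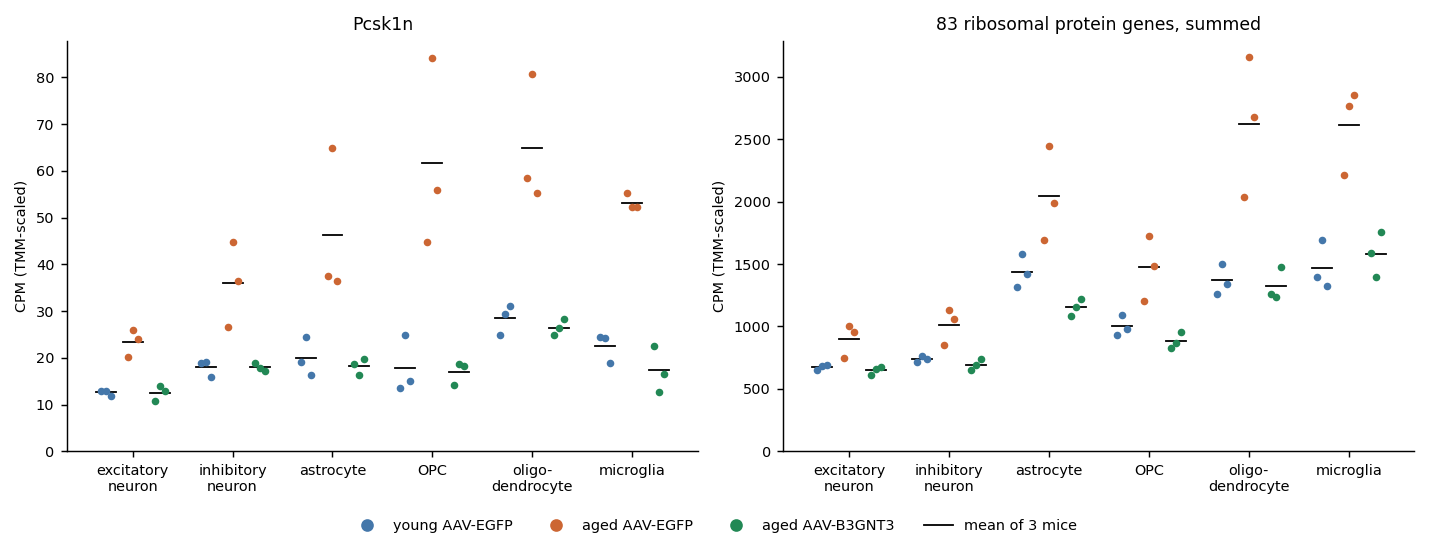
TMM-scaled CPM of Pcsk1n (left) and of 83 ribosomal protein genes summed (right) in 6 cell classes, with 1 point per mouse and a line at the mean of 3 mice. In both panels the 3 aged AAV-EGFP mice lie above the other 6 in each class, and OPC stands for oligodendrocyte precursor.

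In glia, other members were called as well. In astrocytes 4 of 10 members were called with age (12.3% of all genes) and 2 with AAV-B3GNT3 (5.35%). In oligodendrocytes 4 were called with age (21.6%) and 1 with AAV-B3GNT3 (8.5%). In precursors 2 of the 9 members tested were called with age (3.01%) and 1 with AAV-B3GNT3 (0.622%). In microglia edgeR called none of the 8 tested in either comparison, where 0.166% and 0.0356% of all genes were called, and 2 and 1 members had an unadjusted p under 0.05.

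The convertases fell with age in astrocytes. Pcsk2 had 135, 125 and 127 CPM in young, 59.7, 71.7 and 52.7 in aged AAV-EGFP mice and 79.5, 99.8 and 90.7 in aged AAV-B3GNT3 mice. The 3 groups did not overlap, with the aged AAV-B3GNT3 mice in between, and the changes were -1.07 ± 0.15 with age and 0.56 ± 0.15 with AAV-B3GNT3. The second call was lost without any of 8 of the 9 samples. Pcsk1 in astrocytes was low throughout, at 8.72 to 14.3 CPM in young and 1.66 to 6.34 in aged AAV-EGFP mice, and fell by 1.70 ± 0.44, a call lost without aged AAV-EGFP replicate 3 or young AAV-EGFP replicate 1. Per 100 nuclei this was 2.85 to 4.55 UMIs against 0.598 to 1.67, against 47.1 to 93.7 in the excitatory neurons of these mice.

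Cpe in oligodendrocytes had 179, 184 and 137 CPM in young, 80.1, 106 and 66.9 in aged AAV-EGFP mice and 102, 173 and 101 in aged AAV-B3GNT3 mice. It fell by 0.98 ± 0.22 with age, and the change with AAV-B3GNT3 of 0.57 ± 0.22 did not pass. In astrocytes, where Cpe is most abundant, young mice had 2825 to 3650 CPM and aged AAV-EGFP mice 2077 to 2557, at -0.41 ± 0.16, which did not pass. In precursors it fell by 0.53 ± 0.14, a call lost without any of 7 of the 9 samples. Scg5 differed in sign between glial classes with age: it fell by 0.65 ± 0.15 in astrocytes, from 62.4 to 74.3 CPM in young to 39.0 to 49.3 in aged AAV-EGFP mice, and rose by 0.54 ± 0.12 in oligodendrocytes, from 84.5 to 106 to 125 to 150 CPM. The call in astrocytes was lost without aged AAV-EGFP replicate 3 or young AAV-EGFP replicate 1, and that in oligodendrocytes without young AAV-EGFP replicate 2. Pcsk2 fell by 0.52 ± 0.15 in oligodendrocytes, a call lost without aged AAV-EGFP replicate 3 or young AAV-EGFP replicate 1 or 2. The part of free RNA from neurons in these glial levels was not tested.

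Across neuron subclasses, ratios of mean plain CPM are given as values, with no test. Of the 15 subclasses with at least 10 nuclei in each mouse, the 6 with less sure names were left out, a choice made after their values had been seen, and 9 were compared. As a background, among genes with at least 90 UMIs in a subclass, 5.12 to 14.2% were higher with age without overlap of the groups and 8.94 to 15.9% lower, and 13.1 to 19.5% were higher with AAV-B3GNT3 and 3.48 to 6.13% lower. Pcsk1n was higher with age in 9 of 9, without overlap in 6, and lower with AAV-B3GNT3 in 9 of 9, without overlap in 5. Its log2 ratios with age ran from 0.20 in dentate granule-like to 1.61 in Lamp5 interneuron-like neurons. Pcsk1 was lower with age in 8 of 9, without overlap in 6, with ratios from -1.92 in Drd2 striatal-like to 0.12 in CA3-like neurons. With AAV-B3GNT3 it was higher in 8 of 9, without overlap in 2. Cpe was lower with age in 9 of 9, without overlap in 5, and in dentate granule-like neurons the log2 ratio was -0.90. With AAV-B3GNT3 Cpe was higher in 8 of 9, without overlap in 2, and in 14 of all 15, without overlap in 4. In excitatory neurons as a class this change of Cpe was 0.16 on plain CPM, against 0.02 in the fit with TMM scaling. Over all 15, Pcsk1n was higher with age and lower with AAV-B3GNT3 in 15, without overlap in 11 each, Pcsk1 lower with age in 14 and Cpe in 15, without overlap in 11 each.

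Pcsk2 was higher with age in 2 of the 9, the near-projecting-like (log2 ratio 0.21) and layer 6 corticothalamic-like neurons (0.24), both without overlap. It was lower in 7, of which the Lamp5 interneuron-like neurons did not overlap (-0.23). With AAV-B3GNT3 it was higher in 6, all overlapping and at most 0.09, and lower in 3, without overlap in near-projecting-like (-0.20) and layer 6 corticothalamic-like neurons (-0.16). In excitatory neurons as a class, this change of Pcsk2 was -0.27 on plain CPM, against -0.40 in the fit with TMM scaling. The sign of ratios as small as those of the 6 thus depends on the scale, and no opposite change is read from them. The counts for Pcsk2 depend on the subclasses left out. Over all 15 it was higher with age in 7, without overlap in 5, and lower in 8, without overlap in 1. With AAV-B3GNT3 it was higher in 7 and lower in 8 of the 15, without overlap in 6 of the lower. Whether these ratios differ between subclasses was not tested. Subclasses of a mouse share its library, so that these counts are not independent observations.

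**Figure D5:**
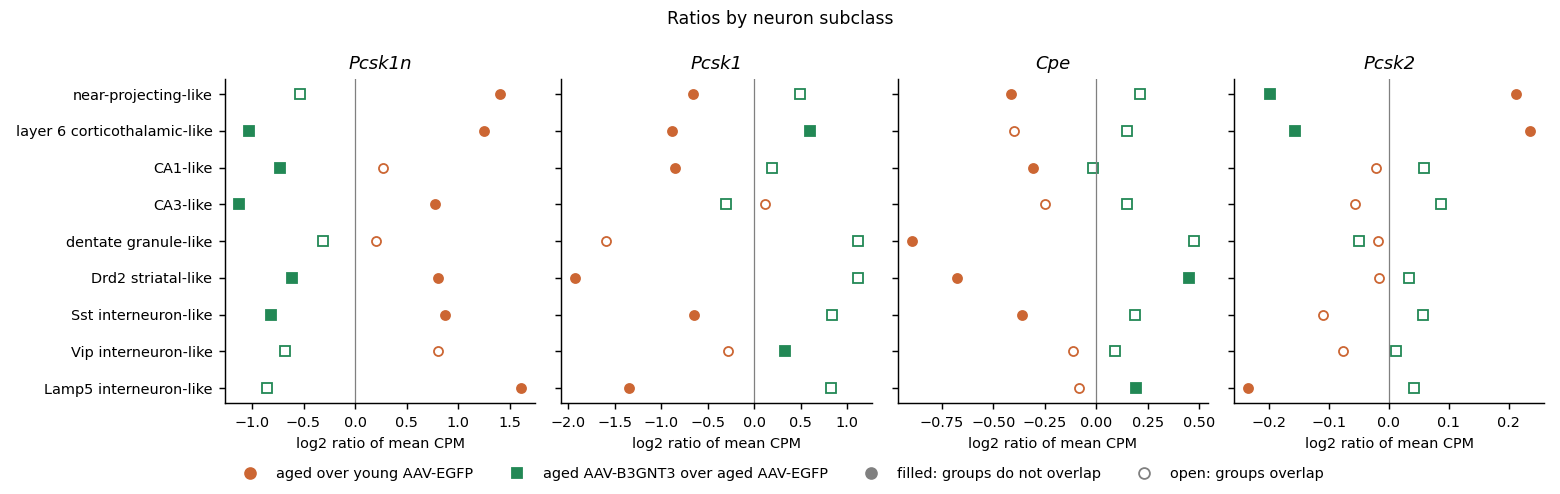
Log2 ratio of mean CPM of Pcsk1n, Pcsk1, Cpe and Pcsk2 in 9 neuron subclasses, for aged over young AAV-EGFP mice (circles) and aged AAV-B3GNT3 over aged AAV-EGFP mice (squares), filled where the 3 mice of each group do not overlap. Pcsk1n lies right of 0 with age in 9 of 9 subclasses, and Pcsk2 in 2 of the 9 drawn (7 of all 15).

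Related genes were counted from lists drawn up beside the members, and their counts are read against the 14.1% of all genes called with age and the 2.43% called with AAV-B3GNT3 in excitatory neurons. Of 20 other processing enzymes and inhibitors, 19 were tested in excitatory neurons, and with age 1 rose and 1 fell, a share below that background. Ctsl, a protease that also cuts prohormones, went from 5.47 ± 0.633 to 9.69 ± 2.22 CPM (mean ± SD, n = 3), a log2 change of 0.83 ± 0.22. Ece1, an endothelin-converting enzyme, fell by 0.50 ± 0.14. Of 30 genes of the dense-core vesicle machinery, 2 rose and 2 fell with age, near the background, and 2 fell with AAV-B3GNT3. Nothing is read from these counts. Cadps2, which primes these vesicles for release, had 435 ± 27.4 CPM in young, 570 ± 42.7 in aged AAV-EGFP mice and 394 ± 41.6 in aged AAV-B3GNT3 mice, with changes of 0.39 ± 0.11 and -0.53 ± 0.11. The small GTPase Rab3a rose by 0.87 ± 0.20 with age, Unc13a, a priming factor, fell by 0.48 ± 0.13, and Rab26, a further vesicle GTPase, fell by 0.73 ± 0.16 with AAV-B3GNT3.

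Of 18 prohormone genes tested in excitatory neurons, 3 were called higher with age, against 14.1% of all genes called in either direction. With AAV-B3GNT3 edgeR called 0 of the 18, of which 7 had an unadjusted p under 0.05, and DESeq2 called 1 of the 15 to which it gave an adjusted p. Nothing is read from these counts, which include genes near the filter on low counts. Cck went from 19.9 ± 3.01 to 33.2 ± 7.62 CPM, a change of 0.74 ± 0.17. The others, Sst (2.28 ± 0.319 to 4.91 ± 2.39 CPM) and Cort (0.114 ± 0.0990 to 0.623 ± 0.211 CPM), are genes of interneurons. Cort passed the filter on low counts through the aged libraries alone, so that its call counts for nothing here. The 6 markers of inhibitory neurons, none of them at 0, summed in the same libraries to 138 to 224 CPM in young, 102 to 151 in aged AAV-EGFP mice and 108 to 172 in aged AAV-B3GNT3 mice. In inhibitory neurons 1 of 17 prohormone genes rose with age (3.45% of all genes called) and 1 fell with AAV-B3GNT3 (0.282%).

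Of 20 genes induced by neuronal activity, 5 fell with age in excitatory neurons, where 1121 of 16893 genes fell, and 2 of 19 fell in inhibitory neurons, where 209 of 14547 did. Homer1 fell by 0.87 ± 0.12, from 664 ± 114 to 364 ± 27.1 CPM, Egr3 by 1.04 ± 0.20 and Fosl2 by 0.84 ± 0.21. Among 8 genes of the CREB family and its coactivators, Ep300 fell by 0.41 ± 0.11 and Crebbp by 0.36 ± 0.11 with age. The median log2 change of the activity genes in excitatory neurons was -0.40 with age and 0.22 with AAV-B3GNT3, and that of the CREB genes was -0.21 and 0.14, against 0.02 and 0.01 for all genes. With AAV-B3GNT3 edgeR called 0 of the 20 activity genes and 0 of the 8 CREB genes there, and DESeq2 called 2 and 0.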

How the data were processed

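Single-nucleus RNA was sequenced with the 10x Genomics 3′ v3.1 kit. The authors aligned reads to GRCm38 (mm10) with Cell Ranger and deposited filtered matrices of raw UMI counts per gene and nucleus, without removal of free RNA. The submitters' processing notes name version 4.0.0 and the matrix headers 7.2.0, and whether intronic reads were counted is not given in the sources used here.

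Nuclei with 200 to 5000 genes and at most 10% mitochondrial counts were kept (74895 of 77823), and 5532 barcodes were marked as doublets by simulated doublets, at 0.8% per 1000 barcodes. Nuclei were clustered on 2000 variable genes and 15 principal components (Leiden resolution 0.3, leidenalg 0.10.2, igraph 0.11.9, Python 3.11.15). Neurons were clustered again on 30 components at resolution 1.0 without the members. Clusters were named from fixed marker lists. A rule that leaves neuron clusters with both glutamatergic and GABAergic markers unnamed was set after the clusters were seen. It left out of the class comparisons a cluster of 3845 nuclei that scored best as inhibitory neurons. These nuclei did enter the second clustering of neurons, so the subclass values can include nuclei that the class values do not. Counts were summed per library and class and fitted with edgeR 4.0.16 (R 4.3.3; filterByExpr, TMM, quasi-likelihood test, two-sided) on all 9 samples, which leaves 6 residual degrees of freedom, with Benjamini-Hochberg adjustment over all genes tested. Levels by class and subclass are plain CPM, and values by mouse in the class comparisons are TMM-scaled CPM. Errors of log2 changes are SE worked back from the test, as the absolute log2 change over the square root of its F statistic. They rest on a spread estimated from all 9 samples and moderated over genes, and are not the spread of the mice in the groups compared.

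The members and lists were chosen with earlier results of these data known. All 10 members are described, the 5 genes most like them are named (Pearson r of log2(mean CPM + 1) among genes reaching 10 CPM in a class or subclass), and list genes are named where called in excitatory neurons, up to 3 per list by smallest p. The fit was tested on simulated data with the depths of the excitatory neurons, where it called 66% of 50 genes raised 2-fold and 22% of 50 raised 1.5-fold. Of genes lowered, it called 73.5% of 49 at 0.5-fold and 14.3% of 49 at 0.67-fold, so that moderate falls were mostly missed in the simulation. There 16477 genes were left unchanged, a far larger part than was left uncalled with age in the data. The adjusted threshold was thus stricter there, and these shares do not carry over to the comparison with age. Alternatives were DESeq2 1.42.0, RLE scaling, all genes kept whatever their counts, doublets kept, nuclei above 5000 genes kept, clusters at resolution 1.0, clusters found without the members, the 2 groups alone, a replicate block, each sample left out, subtraction of the oligodendrocyte level, and thinning to 1000 UMIs.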

Additional observations from a re-analysis of the deposited data

Results flagged for a closer look

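Pcsk2 had log2 changes of opposite sign in some classes whose groups did not overlap, 3 mice against 3. With age it was 0.235 in excitatory neurons, which did not pass the test, and -1.07 in astrocytes and -0.517 in oligodendrocytes, both of which did. With AAV-B3GNT3 it was -0.395 in excitatory and -0.215 in inhibitory neurons, neither of which passed in edgeR, and 0.556 in astrocytes, which did. Scg5 with age was at 0.211 in inhibitory neurons, which did not pass, and at 0.539 in oligodendrocytes and -0.647 in astrocytes, which did. In the other classes fitted the groups of these comparisons overlapped, except for Pcsk2 with age in precursors, at -0.26, which did not pass. Among all genes, the groups did not overlap with age for 3814 of 12644 in astrocytes, 5072 of 13217 in oligodendrocytes and 2305 of 10131 in precursors. With AAV-B3GNT3 this held for 3116 of 12644 genes in astrocytes. The shares in neurons are given above. The difference between classes was not tested.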

How the results depend on the processing

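Leaving out 1 of the 9 samples gave 0 to 2 called members with AAV-B3GNT3 in excitatory neurons, 2 to 3 with age there, 0 to 2 with age and 0 to 1 with AAV-B3GNT3 in inhibitory neurons, 2 to 5 and 0 to 2 in astrocytes, and 3 to 6 and 1 to 2 in oligodendrocytes. Of 630 values with 1 sample left out, 548 kept direction and call, 37 lost the call, 10 gained it and 35 turned sign. Of 360 under other alternatives, 344 kept both, 1 lost the call, 13 gained it and 2 turned sign. Most of these values belong to changes not called in the main fit, which keep their status by staying uncalled. The 360 cover neurons alone, so the calls in glia had no such check. The called members with AAV-B3GNT3 in excitatory neurons were 3 with DESeq2 or no filter on low counts, and 2 with finer clustering, no doublet removal or no upper limit on genes. By unadjusted edgeR p, Pcsk2 (0.0015) and Pcsk1 (0.0028) stood next to Pcsk1n there. With age in inhibitory neurons the called members were 3 with DESeq2 and 2 with no filter. Next to Pcsk1n there by unadjusted edgeR p stood Pcsk1 (0.0033), Chgb (0.0052) and Cpe (0.0073), and DESeq2 called no granin. Under a replicate block Pcsk1n with AAV-B3GNT3 in inhibitory neurons was no longer called (0 members called, log2 -0.99). Same-numbered samples correlated at -0.38 to 0.45 in excitatory and -0.26 to 0.48 in inhibitory neurons, so the numbers were not taken to pair the mice. The cause of these shifts was not tested.

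Small log2 changes turned sign. The Scg2 log2 change with age in excitatory neurons was 0.0477 with no upper limit on genes, and the Scg5 log2 change with age in excitatory neurons was -0.00579 with DESeq2. With 1 sample left out, the excitatory changes with age ranged from -0.214 to 0.195 for Scg2, -0.168 to 0.235 for Vgf and -0.0459 to 0.1004 for Scg5. With AAV-B3GNT3 they ranged from -0.284 to 0.0429 for Chgb, -0.306 to 0.103 for Scg2, -0.359 to 0.0449 for Vgf, -0.0907 to 0.211 for Cpe and -0.121 to 0.0606 for Scg5. In inhibitory neurons they ranged with age from -0.381 to 0.00301 for Chga, -0.313 to 0.0181 for Vgf and -0.0144 to 0.325 for Pcsk2. With AAV-B3GNT3 they ranged from -0.0345 to 0.205 for Chga, -0.0885 to 0.0627 for Chgb, -0.0394 to 0.157 for Scg3, -0.237 to 0.0348 for Vgf and -0.102 to 0.0103 for Scg5, and Cpe in astrocytes from -0.154 to 0.0367.

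The count of all genes called with AAV-B3GNT3 in excitatory neurons was 410, and 1308 with DESeq2, 1053 with no filter and 48 with the 2 groups alone. That of all genes called with AAV-B3GNT3 in inhibitory neurons was 41, and 328 with DESeq2, 746 with no filter, 168 with the 2 groups alone, 101 with no doublet removal, 88 with finer clustering, 82 with no upper limit and 20 with the block. That of all genes called with age in inhibitory neurons was 502, and 823 with DESeq2, 1386 with no filter, 141 with the 2 groups alone and 120 with the block. Free RNA, 3 mice per group and levels near 10 CPM for Scg2, Chga and Pcsk1n limit these values.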
